A study of Homo sapiens with 21 samples.

Results

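Mitochondrial ribosomal protein (MRP) genes are the nuclear genes named MRPL or MRPS, most of which encode proteins of the large or the small subunit of the ribosome inside mitochondria. They were chosen by symbol alone: MRPL or MRPS, a number and an optional suffix A, B or C, protein coding, present in both deposited count tables. This gave 78 of 60668 rows, 49 of them MRPL and 29 MRPS, and 86 other rows with symbols of this kind, pseudogenes among them, were left out. All 78 genes passed the filter on low counts in both tables, in which 23160 and 24362 genes were tested, so no member was lost.

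The samples were 21 polyA-selected RNA-seq libraries of HCC1806, a human triple-negative breast cancer cell line grown in 2 dimensions, in 7 groups of 3 replicates. The first table held a control (3xCTL), cells made to express the splicing factors SRSF2, SRSF3 and SRSF7 together (3xSR) and cells made to express MYC (MYC-OE). The second table held a single plasmid control (1xCtrl) and cells made to express 1 factor each, SRSF2-OE, SRSF3-OE or SRSF7-OE. Each line was compared with the control of its own table. The labels do not give how the genes were introduced, the promoter that drives them or whether a line is 1 clone, and MYC-OE was set against 3xCTL because their titles stand together. Nothing in the labels says that replicates were separate cultures, so p-values measure the spread between these libraries, which may be technical.

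Base overlap between genes limits some counts: 16 of the 78 genes share exon bases with a gene on the same strand and 25 more only with one on the opposite strand (GENCODE 29, GRCh38). Depth ran from 143269192 to 303323552 counts per library. Levels are given as CPM, counts scaled to a common TMM-adjusted library size, and differences as log2 fold changes from edgeR's quasi-likelihood test, with a Benjamini-Hochberg adjusted p under 0.05 over all genes of the table as the threshold. MYC was higher in 3xSR by 0.75 and in MYC-OE by 0.90 on the log2 scale. SRSF3 was higher by 0.31 in 3xSR and by 0.49 in SRSF3-OE, and SRSF7 by 0.44 in 3xSR and by 0.26 in SRSF7-OE. MYC was also higher in SRSF3-OE by 0.26 (adjusted p = 0.00406) and in SRSF7-OE by 0.27 (adjusted p = 0.00608, edgeR), and its value in SRSF2-OE, 0.12, was not called. SRSF2 was not raised where the labels name it: its log2 fold change was -0.06 in the libraries labelled 3xSR and -0.16 (adjusted p = 0.098, edgeR) in those labelled SRSF2-OE. In SRSF2-OE the other 2 factors were higher, SRSF3 by 0.30 (adjusted p = 0.00794) and SRSF7 by 0.24 (adjusted p = 0.00681, edgeR). SRSF2 was lower in 2 lines that do not carry its name, at -0.48 in MYC-OE (adjusted p = 2.32e-05) and -0.38 in SRSF7-OE (adjusted p = 0.0018, edgeR). The part of these changes in the MRP values was not tested. Below, 3xSR and SRSF2-OE stand for the libraries so labelled. In bulk RNA a change in the number of cells of a kind and a change in RNA per cell cannot be told apart. Of the markers of the cell line's origin, the basal keratin KRT5 lay between 1600.1 and 2651 CPM, and the other 6 basal markers between 45.2 and 1288 CPM. Of the luminal markers ERBB2, at 99.6 to 184 CPM, lay within the range of those 6 basal markers. The others lay below it: GATA3 at 18.0 to 28.1, FOXA1 at 9.72 to 21.4, the oestrogen receptor gene ESR1 at 6.49 to 11.5 and the progesterone receptor gene PGR at 0 to 1.46, with 12 libraries at 0. Of the 5 fibroblast markers LUM ran from 5.51 to 39.7 CPM and COL1A1 from 5.46 to 15.7, and the other 3 stayed at or below 0.994. Of the 4 endothelial markers VWF reached 1.04 CPM, KDR 0.329, PECAM1 0.149 and CDH5 0.124. Of the leukocyte markers CD14 ran from 0.70 to 2.63 CPM, and PTPRC reached 0.539 and CD3E 0.0254. The part of other cell types in the MRP values was not tested.

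Mitochondrial ribosomes translate the few mRNAs encoded by mitochondrial DNA, all of which code for subunits of the respiratory chain complexes and of the ATP synthase. Their RNAs are transcribed from mitochondrial DNA, but all of their proteins are made in the cytosol from nuclear mRNAs and imported. Some of these proteins have a homologue in bacterial ribosomes and others were added in the mitochondrial lineage. By these roles the 78 genes divide into 51 of the large subunit, 30 with a bacterial homologue and 21 specific to mitochondria, and 26 of the small subunit, 16 with a homologue and 10 specific to mitochondria. The large-subunit set includes MRPS30 and MRPS18A despite their names. MRPS18A and MRPS18B were counted as specific to mitochondria, although they are homologues, like MRPS18C, of a bacterial protein. The class counts below keep this division. MRPS36, which RefSeq lists as KGD4, is a component of the 2-oxoglutarate dehydrogenase complex and not of the ribosome; it was kept because the symbol rule takes it.

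Many MRP promoters are known to carry sites for ETS-family factors such as GABP, and the 7-base ETS core CCGGAAG was searched on both strands in the 250 bases before the annotated starts. RefSeq promoter windows matched 69 of the 78 genes. The core lay before 25 of the 69 (36.2%), against 14.0% of the 15843 genes with a window. The E-box CACGTG, the core bound by MYC and its partners, lay before 8 (11.6%), against 9.73% of all, and the palindromic NRF1 motif before 1 (1.45%), against 1.72%. The stretches below precede MRPL3, MRPL47, MRPS22, MRPS31, MRPL20 and MRPL58, or lie between the divergent pair MRPL46 and MRPS11. They were picked after the data were seen and do not represent the members. Each runs 5′ to 3′ on the gene's strand, leaves out annotated exon bases, and has CCGGAAG or its complement CTTCCGG in capitals (RefSeq, GRCh38.p14).
MRPL3, chr3:131502984-131503083, minus strand: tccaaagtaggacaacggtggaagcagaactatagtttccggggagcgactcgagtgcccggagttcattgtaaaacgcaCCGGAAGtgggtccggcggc
MRPL47, chr3:179604655-179604689, minus strand: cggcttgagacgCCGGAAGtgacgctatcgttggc
MRPS22, chr3:139343827-139343955, plus strand: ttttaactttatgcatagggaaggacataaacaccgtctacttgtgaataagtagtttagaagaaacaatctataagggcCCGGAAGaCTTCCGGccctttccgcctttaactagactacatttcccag
MRPS31, chr13:40771191-40771302, minus strand: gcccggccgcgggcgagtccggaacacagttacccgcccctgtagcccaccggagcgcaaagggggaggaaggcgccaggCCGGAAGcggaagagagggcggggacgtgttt
MRPL20, chr1:1407314-1407417, minus strand: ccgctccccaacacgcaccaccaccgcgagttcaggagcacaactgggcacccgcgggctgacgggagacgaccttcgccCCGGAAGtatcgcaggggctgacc
MRPL58, chr17:75012420-75012669, plus strand: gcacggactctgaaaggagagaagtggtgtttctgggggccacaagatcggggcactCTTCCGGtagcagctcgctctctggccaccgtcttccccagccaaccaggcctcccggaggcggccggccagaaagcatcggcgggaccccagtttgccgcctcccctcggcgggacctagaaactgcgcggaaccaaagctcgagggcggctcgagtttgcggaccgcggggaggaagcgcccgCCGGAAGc
MRPL46 and MRPS11, chr15:88467420-88467452, minus strand: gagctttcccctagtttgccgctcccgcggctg
The first 5 each hold the core, MRPS22 in both orientations side by side, and MRPL58 holds it once in each orientation. Every single gene shown thus holds it, whereas 25 of the 69 members with a window do. The median log2 fold changes with and without the core were -0.03 and -0.03 in 3xSR and 0.11 and 0.08 in MYC-OE. They were 0.31 and 0.19 in SRSF2-OE, 0.32 and 0.25 in SRSF3-OE and 0.22 and 0.17 in SRSF7-OE. The difference was not tested in any line. The 33 bases between MRPL46 and MRPS11 hold none. A match describes letters in a window and does not show that a factor binds there.

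In the controls the MRP genes spanned a wide range of levels. Per kilobase of transcript, the median over the 78 genes was 31.1 CPM per kb in 3xCTL and 28.3 in 1xCtrl. By this length the 3 most abundant in 3xCTL were MRPL33 at 175, MRPL51 at 168 and MRPL49 at 167 CPM per kb, and the least abundant were MRPL41 at 2.16 and MRPL57 at 2.80. The ranks depend on the length used. The transcript length was 461 bases for MRPL33 and 509.5 for MRPL49, and all exon bases came to 1539 and 3080. The lowest count of any member in any library was 180, so no value was near the limit of 3 counts. Together the 78 genes took 0.324% ± 0.0087 of all counts in 3xCTL, 0.325% ± 0.00743 in 3xSR and 0.336% ± 0.00423 in MYC-OE (SD, n = 3 each). In the second table they took 0.301% ± 0.00909 in 1xCtrl, 0.333% ± 0.0102 in SRSF2-OE, 0.341% ± 0.0091 in the SRSF3-OE libraries and 0.341% ± 0.00921 in SRSF7-OE (SD, n = 3 each). The 3 libraries of 1xCtrl, from 0.291% to 0.309%, lay below all 18 others, which ran from 0.314% to 0.350%, so comparisons in the second table start from the lowest control. The same order held with mitochondrially encoded RNA, 9.23% to 13.6% of counts, left out of the total: 0.334% to 0.346% in 1xCtrl and at least 0.355% elsewhere.

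**Figure D1:**
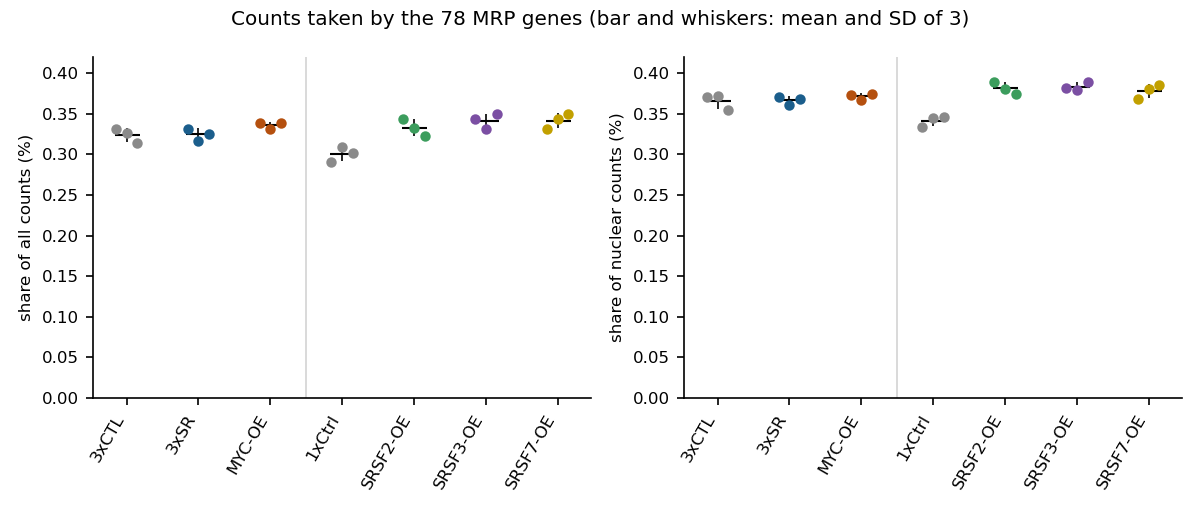
Share of all counts (left) and of nuclear-encoded counts (right) taken by the 78 MRP genes (y axes, percent) in each of the 21 libraries (points), by group (x axes), with the mean and SD of 3 as bar and whiskers. The 3 libraries of 1xCtrl lie below every other library in both panels, at 0.334% to 0.346% on the right.

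In the single-factor lines MRP genes were higher than in 1xCtrl far more often than lower. In SRSF3-OE 45 of 78 rose and 1 fell, with a median log2 fold change of 0.29, against 15.0% of all tested genes called higher and 14.1% called lower. In the libraries labelled SRSF2-OE 35 rose and none fell (median 0.24, background 11.6% higher and 11.9% lower). DESeq2 called 36 and 0 there, beside 12.3% of all genes higher and 13.2% lower. At an unadjusted p under 0.05 in edgeR 47 were higher and 2 lower, for which no share of all genes was taken. In SRSF7-OE 25 rose and 1 fell (median 0.20, background 9.03% and 8.26%). The median over all genes lay between -0.03 and 0 in the 3 comparisons. These 3 comparisons share the 1xCtrl libraries, so their counts are not independent. In SRSF7-OE 72 of the 78 point estimates were above 0, in SRSF2-OE 71 and in SRSF3-OE 65.

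**Figure D2:**
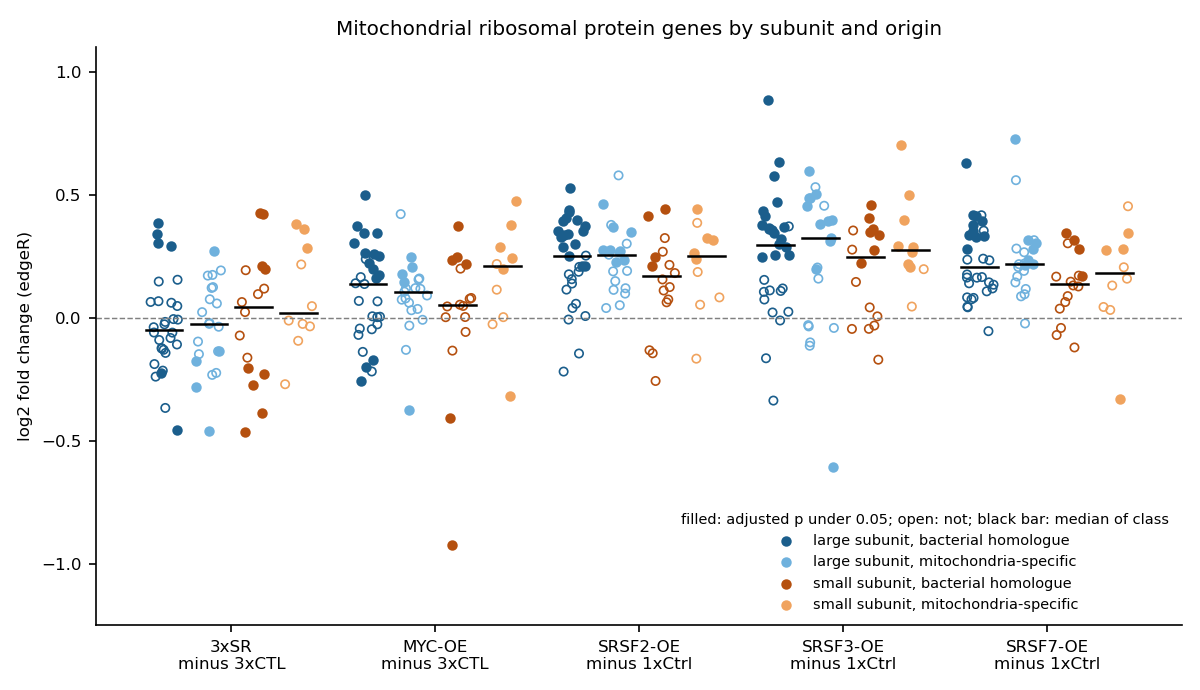
Log2 fold change (y axis) of each MRP gene of the ribosome (points, MRPS36 left out) in the 5 lines against their own controls (x axis), coloured by subunit and origin; filled points have an edgeR adjusted p under 0.05 and bars are class medians. In the single-factor lines the filled points lie above 0 but for 1 each in SRSF3-OE and SRSF7-OE, in MYC-OE 25 lie above and 7 below, and in 3xSR 12 above and 11 below.

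Both subunits and both origins took part. Of the 30 large-subunit genes with a bacterial homologue, 17 rose in SRSF2-OE, 18 in the SRSF3-OE libraries and 10 in SRSF7-OE. Among the 21 large-subunit genes specific to mitochondria, 8, 11 and 7 rose. The 16 small-subunit genes with a homologue gave 4, 7 and 4 higher calls, with medians of 0.17, 0.25 and 0.14. The 10 small-subunit genes specific to mitochondria gave 5, 8 and 3 higher calls, and their medians were 0.25, 0.28 and 0.18. MRPS36, outside the ribosome, rose by 0.37, 0.31 and 0.37.

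MRPL3 (ENSG00000114686.9, chr3:131462212-131502983, minus strand, GRCh38), a core protein of the large subunit related to bacterial uL3, rose in all 5 lines, the only MRP gene to do so. It read 88.9, 97.5 and 80.1 CPM in 3xCTL, 121, 107 and 110.2 in 3xSR, and 116, 112 and 117 in MYC-OE. In the second table it read 87.7, 80.8 and 93.4 CPM in 1xCtrl, 121, 119 and 112 in SRSF2-OE, 142, 129 and 135 in the SRSF3-OE libraries, and 103, 107 and 108 in SRSF7-OE. Both controls sat below every library of their lines, and SRSF3-OE was the highest group. The log2 fold changes were 0.34 in 3xSR (SE 0.07, adjusted p = 0.0038), 0.37 in MYC-OE (SE 0.07, adjusted p = 0.00166), 0.43 in SRSF2-OE (SE 0.06, adjusted p = 0.00041), 0.63 in SRSF3-OE (SE 0.06, adjusted p = 1.32e-05) and 0.28 in SRSF7-OE (SE 0.06, adjusted p = 0.00969; edgeR).

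MRPL47 (ENSG00000136522.14, chr3:179588285-179604654, minus strand), the uL29 homologue near the exit of the peptide tunnel, had the highest log2 fold change of any MRP gene in SRSF3-OE. It read 52.2, 44.4 and 56.7 CPM in 1xCtrl, 75.8, 72.9 and 72.2 in SRSF2-OE, 99.9, 90.1 and 92.9 in the SRSF3-OE libraries, and 56.6, 59 and 53.7 in SRSF7-OE. SRSF3-OE and SRSF2-OE lay clear of the control, and SRSF7-OE overlapped it. The log2 fold change was 0.88 in SRSF3-OE (SE 0.08, adjusted p = 5.86e-06) and 0.53 in SRSF2-OE (adjusted p = 0.000488), and in SRSF7-OE it was 0.14 (adjusted p = 0.255, edgeR). The core CCGGAAG stands in the 35 bases shown for MRPL47.

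MRPS22 (ENSG00000175110.11, chr3:139005806-139357223, plus strand), a small-subunit protein specific to mitochondria, gave the same order. Its libraries read 36.7, 39.4 and 41.2 CPM in 1xCtrl, 52.1, 53.7 and 53.3 in SRSF2-OE, 66.6, 59.4 and 64.8 in the SRSF3-OE libraries, and 40.3, 39 and 41.5 in SRSF7-OE. The SRSF2-OE and SRSF3-OE libraries did not overlap the control, and those of SRSF7-OE did. The log2 fold change was 0.70 in SRSF3-OE (SE 0.06, adjusted p = 4.44e-06), 0.44 in SRSF2-OE (adjusted p = 0.000289) and 0.04 in SRSF7-OE (adjusted p = 0.705, edgeR).

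Other MRP genes were highest in SRSF3-OE as well. MRPS30, a large-subunit protein specific to mitochondria, read 46, 41.6 and 45.3 CPM in 1xCtrl and 71.6, 61.9 and 67.5 in SRSF3-OE, a log2 fold change of 0.60 (adjusted p = 2.9e-05, edgeR), and its values in SRSF2-OE (0.19) and SRSF7-OE (0.09) were not called. MRPL32, whose maturation by a mitochondrial protease is a known step of ribosome assembly, read 57.3, 53.6 and 57.4 CPM in 1xCtrl and 82.1, 81.5 and 87 in SRSF3-OE (0.58, adjusted p = 8.57e-06, edgeR). All 3 SRSF3-OE libraries of both genes stood above all control libraries. MRPL58, a peptidyl-tRNA hydrolase built into the large subunit, rose by 0.49 in SRSF3-OE (adjusted p = 0.0006, edgeR).

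The member that fell in SRSF3-OE was MRPL53 (ENSG00000204822.7, chr2:74471958-74473322, minus strand), a large-subunit protein specific to mitochondria. It read 5.33, 5.07 and 5.9 CPM in 1xCtrl and 3.92, 4.03 and 2.75 in SRSF3-OE, without overlap, and the log2 fold change was -0.61 (SE 0.17, adjusted p = 0.0177, edgeR). Over 16 alternatives the adjusted p lay between 0.00348 and 0.054, the upper end without replicate 3 of SRSF3-OE. MRPL53 shares 608 exon bases on the same strand with CCDC142, for which the log2 fold change was -0.13 (adjusted p = 0.283, edgeR), so the counts of the pair are uncertain.

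MRPL11, homologous to bacterial uL11 of the ribosome's stalk base, rose in each single-factor line. It read 38.1, 37.3 and 39.2 CPM in 1xCtrl, 51.6, 48.8 and 50.3 in SRSF2-OE, 45.4, 45.6 and 45.8 in the SRSF3-OE libraries, and 51.2, 51.7 and 49.5 in SRSF7-OE. No library of these lines overlapped the control, and the log2 fold changes were 0.39, 0.26 and 0.41 (adjusted p = 0.000139, 0.00193 and 0.000268, edgeR). MRPL33, the bL33 homologue and the most abundant member in 3xCTL per kilobase of transcript, rose by 0.35, 0.32 and 0.42. It shares 324 exon bases with BABAM2, which rose by 0.39 in SRSF7-OE alone of these 3 comparisons.

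MRPL54 and MRPL23 had the highest log2 fold changes in SRSF7-OE, with scattered controls. MRPL54 read 5.91, 9.93 and 4.68 CPM in 1xCtrl and 11.5, 10.2 and 12.3 in SRSF7-OE, a log2 fold change of 0.73 (SE 0.22, adjusted p = 0.0454, edgeR); replicate 2 of 1xCtrl came close to the treated libraries. MRPL23 read 3.14, 4.62 and 3.03 CPM in 1xCtrl and 5.42, 5.36 and 5.89 in SRSF7-OE (0.63, adjusted p = 0.0131, edgeR). Both calls were lost when replicate 1 of 1xCtrl was left out (adjusted p = 0.234 and 0.118, edgeR). Of 16 alternatives each, 10 ended the call of MRPL54, with adjusted p from 6.38e-05 to 0.234, and 6 that of MRPL23, with adjusted p from 0.000225 to 0.118. MRPS25, a small-subunit protein specific to mitochondria, fell by 0.33 in SRSF7-OE (adjusted p = 0.0123, edgeR), from 82.2, 81.4 and 87.4 to 67.5, 67.1 and 64.9 CPM.

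The counts in SRSF7-OE moved most with single libraries. Without replicate 1 of 1xCtrl 10 rose and 1 fell, where 5.49% of all genes were called higher, and without replicate 2 of 1xCtrl 39 rose and 2 fell, where 16.4% were. Without replicate 1, 2 or 3 of SRSF7-OE 15, 10 and 10 rose with 1 lower in each, beside 6.44%, 5.57% and 5.40% of all genes called higher. In SRSF2-OE 19 rose without replicate 1 of 1xCtrl (7.04% of all genes), 19 without replicate 1 (7.53%) and 21 without replicate 2 (7.38%) of SRSF2-OE, and in SRSF3-OE 30 rose without its replicate 3 (9.89%). The share of all genes called thus moved with the same libraries. Replicate 2 of 1xCtrl stood apart in how its counts depended on GC content: its GC trend, on the log2 scale relative to the mean of its table, was 0.39 at 60% GC, against -0.11 and -0.23 in the other 2. Without that replicate 41 rose and 1 fell in SRSF2-OE and 51 rose and 3 fell in SRSF3-OE, beside 14.5% and 16.3% of all genes called higher.

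The 3xSR line did not show this one-sided pattern. In it 12 MRP genes rose and 11 fell, with a median log2 fold change of -0.02, beside 15.3% of all genes called higher and 13.7% lower, so the share of members called was 23 of 78 against a background of 29.0%. Without replicate 2 of 3xCTL the counts were 22 and 20, with 19.4% of all genes called higher and 19.1% lower in that fit. Of the 78 estimates 34 were above 0. The 30 large-subunit genes with a homologue gave 4 higher and 2 lower, the 21 specific to mitochondria 1 and 4, the 16 small-subunit genes with a homologue 4 and 5, and the 10 specific to mitochondria 3 and 0.

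Those that rose in 3xSR included several named above. MRPS5, homologous to bacterial uS5, read 68.1, 71.6 and 65.3 CPM in 3xCTL, 89, 92 and 94.6 in 3xSR and 68.5, 68.2 and 68.6 in MYC-OE. Only the 3xSR libraries were apart from the control, with a log2 fold change of 0.43 (SE 0.05, adjusted p = 6.02e-05, edgeR) against 0.00 in MYC-OE. MRPS6 read 26.5, 29.7 and 27.1 CPM in 3xCTL and 37.9, 36 and 37.6 in 3xSR (0.42, adjusted p = 0.000154, edgeR). Both share exon bases with a neighbour on the same strand, 550 with ZNF514 and 413 with SLC5A3, and those neighbours rose by 0.57 and 0.89 in 3xSR. MRPL47 rose by 0.38, MRPS31 by 0.38, MRPS35 by 0.36 and MRPS22 by 0.28 (adjusted p = 0.00231, 0.00069, 0.00106 and 0.00276, edgeR).

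Those that fell in 3xSR came from both subunits. MRPS11, homologous to bacterial uS11 on the small subunit's platform, read 17.1, 15.5 and 15.3 CPM in 3xCTL and 11.7, 11.6 and 11.3 in 3xSR, a log2 fold change of -0.47 (adjusted p = 0.00026, edgeR). MRPL12, the stalk protein that has also been described as a partner of the mitochondrial RNA polymerase, read 54.1, 48.4 and 50.3 CPM in 3xCTL and 37.6, 38.5 and 35.1 in 3xSR (-0.46, adjusted p = 0.000154, edgeR). MRPL54 read 13, 9.73 and 12.8 against 8.2, 9.27 and 8.43 CPM (-0.46, adjusted p = 0.00719, edgeR). In each of the 3 genes every 3xSR library lay below every control library. MRPL12 shares 701 exon bases on the same strand with a further annotated transcript.

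MRPS11 and its divergent neighbour MRPL46, parted by 33 bases free of annotated exons, were called in 3 and 2 lines. MRPL46 gave -0.18 in 3xSR (adjusted p = 0.0424), 0.24 in SRSF2-OE and values not called in the other 3 lines, and MRPS11 gave -0.47 in 3xSR, 0.44 in SRSF2-OE (adjusted p = 0.00325) and 0.28 in SRSF7-OE (adjusted p = 0.0484, edgeR). Both fell in 3xSR and both rose in SRSF2-OE, and the difference between them was not tested. MRPL46 shares exon bases on the same strand with a further annotated transcript, so its counts are uncertain.

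The genes that rose and fell in 3xSR differed in base composition. With the members split at their median GC content, the GC-poorer 39 gave 11 higher and 3 lower with a median of 0.12, and the GC-richer 39 gave 1 higher and 8 lower with a median of -0.13. After removal of each library's GC trend, fitted over all genes, the medians were 0.01 and 0.00. The counts were 9 higher and 6 lower, and 2 higher and 7 lower. In that fit 33.2% of all genes were called in either direction, and 17.2% were called higher. MRPL12, at 64.6% GC, was then no longer called (adjusted p = 0.219, edgeR, the highest of 16 alternatives, the lowest being 1.34e-09). In the single-factor lines removal of the trend left the one-sided pattern, with 43 higher and 4 lower in SRSF2-OE, 53 and 5 in the SRSF3-OE libraries and 40 and 1 in SRSF7-OE. Of all genes 16.7%, 20.2% and 15.1% were called higher there, and 17.0%, 18.0% and 13.7% lower. MYC-OE gave 31 higher and 9 lower, beside 22.1% and 21.2% of all genes.

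In MYC-OE 25 MRP genes rose and 7 fell, with a median log2 fold change of 0.11, beside 18.0% of all genes called higher and 17.3% lower. Without replicate 1 of MYC-OE 16 rose and 5 fell, beside 14.6% and 13.5% of all genes. The point estimate was above 0 for 59 of the 78. Of the 30 large-subunit genes with a homologue 12 rose and 3 fell, and of the 10 small-subunit genes specific to mitochondria 5 rose and 1 fell. The 16 small-subunit genes with a homologue gave 4 higher and 2 lower, and the 21 large-subunit genes specific to mitochondria 4 and 1.

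MRPL23, the uL23 homologue at the tunnel exit, had the highest log2 fold change in MYC-OE. It read 5.04, 3.83 and 4.88 CPM in 3xCTL and 6.49, 6.57 and 6.36 in MYC-OE, with no overlap (0.50, adjusted p = 0.00373, edgeR). MRPS31, specific to the mitochondrial small subunit, read 25, 25.4 and 22 CPM in 3xCTL and 34.1, 33.1 and 33.5 in MYC-OE (0.47, adjusted p = 9.66e-05, edgeR). MRPS22 rose by 0.38, MRPL3 by 0.37, MRPS28 by 0.37 and MRPL55 by 0.34. The 8 genes with CACGTG in the window gave 4 higher and none lower with a median of 0.16, and the 61 without it 18 higher and 6 lower with a median of 0.08. The medians with and without it were 0.02 and -0.03 in 3xSR, 0.27 and 0.21 in SRSF2-OE, 0.37 and 0.27 in the SRSF3-OE libraries, and 0.25 and 0.17 in SRSF7-OE. The same 8 genes enter each line and lines of a table share their control, so these values are not independent. For the ETS core CCGGAAG, too, the median with it was the higher in MYC-OE and the single-factor lines. The difference was not tested in any line.

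MRPS12 (ENSG00000128626.11, chr19:38930548-38933162, plus strand), the homologue of bacterial uS12 at the decoding centre, fell most in MYC-OE. It read 28.7, 21.6 and 25.5 CPM in 3xCTL, 20.2, 19.1 and 18.6 in 3xSR and 13.4, 12.3 and 14.2 in MYC-OE. Each MYC-OE library lay below every library of the other groups of that table, and 3xSR lay between. The log2 fold change was -0.92 in MYC-OE (SE 0.10, adjusted p = 1.62e-05) and -0.39 in 3xSR (adjusted p = 0.00934, edgeR). MRPS12 shares 349 exon bases with SARS2 on the opposite strand, and whether the counting used strand is not given in the sources used here.

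The genes around MRPS12 were lower too. Of the 47 tested protein-coding genes with any base within 1 Mb of it on chromosome 19, 36 were called lower and 3 higher in MYC-OE, with a median log2 fold change of -0.91, next to -0.92 for MRPS12 itself. Of 14564 genes with at least 5 such neighbours, 0.282% had a neighbour median as low. Genes that lie together share neighbours, so genes of this same stretch can make up that share. MRPS12 was also picked as the member that fell most, so the share is a description and not a test. In 1 Mb steps, which count genes by the distance between starts, so that the steps flanking MRPS12 hold 25 and 20 genes, the medians were -0.52 from 2 to 1 Mb before MRPS12, -0.88 and -0.89 in the steps that flank it and -0.53 from 1 to 2 Mb after it, and between -0.09 and 0.35 in the other steps out to 5 Mb. In 3xSR 22 of the neighbours were called lower and 3 higher with a median of -0.32. SARS2, the mitochondrial seryl-tRNA synthetase, fell by 1.05 and TIMM50, a subunit of the inner-membrane import channel, by 0.91 in MYC-OE, and both lie in that stretch.

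**Figure D3:**
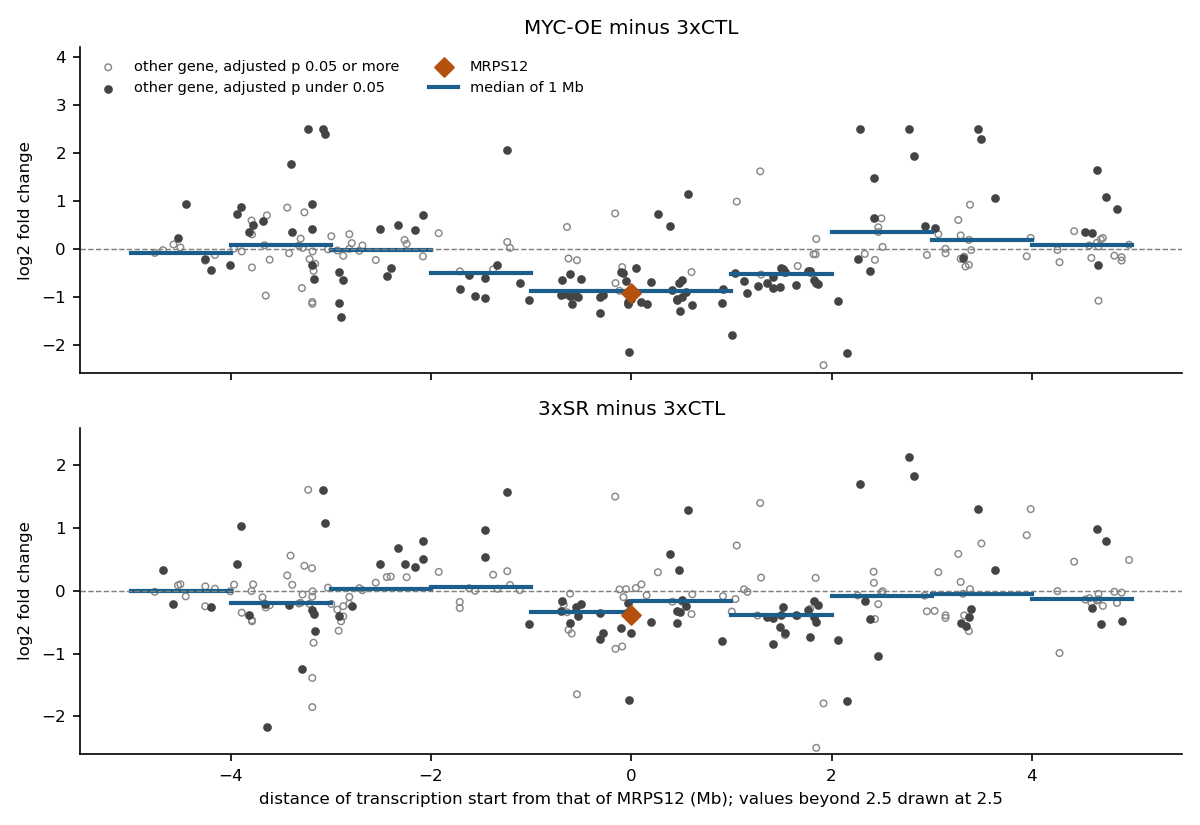
Log2 fold change (y axis) of tested protein-coding genes within 5 Mb of MRPS12 against distance from it in Mb (x axis), in MYC-OE (top) and in 3xSR (bottom), each against 3xCTL; bars are medians of 1 Mb steps and values beyond 2.5 are drawn at 2.5. Within 1 Mb of MRPS12 the median was -0.91 in MYC-OE and -0.32 in 3xSR.

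Other members that fell in MYC-OE were set beside their neighbours as well. MRPS7, homologous to bacterial uS7, read 84.1, 85.6 and 85.9 CPM in 3xCTL and 64.2, 64.6 and 64 in MYC-OE (-0.41, adjusted p = 1.69e-05, edgeR), and its neighbours on chromosome 17 had a median of -0.38, with 35 of 57 lower. MRPL58 gave -0.37 (adjusted p = 0.00178, edgeR) and its neighbours -0.41, with 32 of 51 lower. MRPL38, also there, gave 0.09 with the neighbours at -0.41. MRPS25 on chromosome 3 fell by 0.32 (adjusted p = 0.00203, edgeR) with neighbours at -0.03.

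The neighbours of the genes that rose were compared in the same way. Around MRPL3 the median was 0.45 in 3xSR with 4 of 7 called higher and 0.42 in SRSF3-OE with 6 of 7, beside 0.34 and 0.63 for MRPL3, whereas in SRSF7-OE it was -0.03 beside 0.28. Around MRPL47 the median in SRSF3-OE was 0.43, with 9 of 12 higher, beside 0.88 for the gene, and around MRPS22 it was 0.21, with 6 of 13 higher, beside 0.70. MRPS35 in 3xSR gave 0.36 and its neighbours 0.51, with 13 of 14 higher, and MRPL12 gave -0.46 with its neighbours at -0.38. Over the members with at least 5 neighbours, the log2 fold change exceeded the neighbours' median in 43 of 76 in 3xSR, 54 of 76 in MYC-OE, 68 of 77 in SRSF2-OE, 64 of 77 in SRSF3-OE and 66 of 77 in SRSF7-OE. The median excess was 0.02, 0.08, 0.24, 0.25 and 0.16 in that order. The part of gene copy number or of the chromosomal surroundings in these values was not tested.

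**Figure D4:**
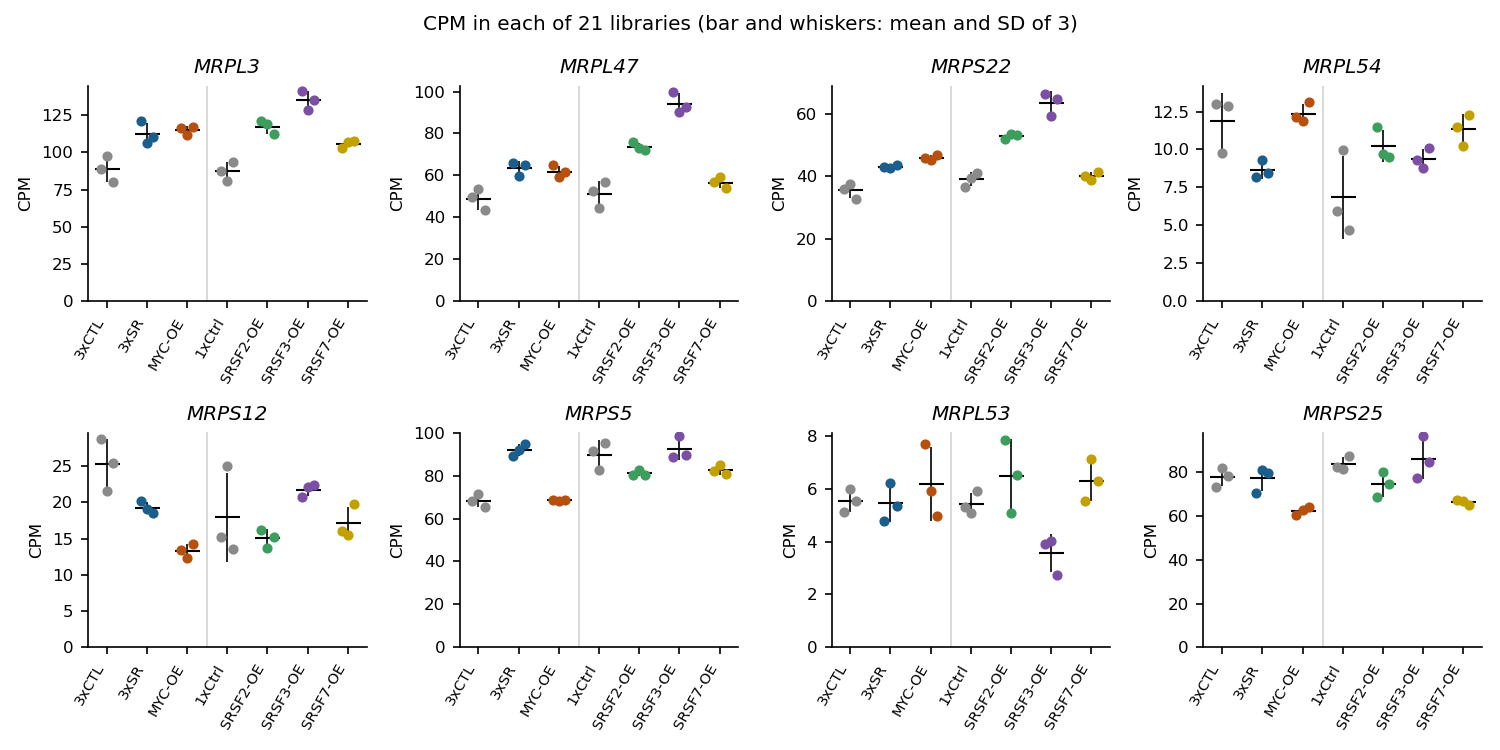
CPM (y axes, from 0) of 8 MRP genes in every library (points), by group (x axes), with the mean and SD of 3 as bar and whiskers; a grey line parts the 2 tables. MRPL3 and MRPS22 are higher in SRSF3-OE than in 1xCtrl in every library, and MRPS12 is lowest in MYC-OE among the 3 groups of its table.

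Of the 78 genes 12 (15.4%) rose in at least 4 of the 5 lines, against 3.68% of the 22941 genes tested in both tables, and 1 (1.28%) rose in all 5, against 0.998%. MRPL3 rose in all 5 and the other 11 in 4: MRPL47, MRPS22, MRPS31, MRPS35, MRPL11, MRPL21, MRPL33, MRPL36, MRPL37, MRPS28 and MRPS33. Because lines of a table share their control, these are counts of calls and not independent repeats. MRPS35 read 78, 72.7 and 86.8 CPM in 1xCtrl and 120, 100.1 and 114 in SRSF3-OE (0.50, adjusted p = 0.000559, edgeR). No MRP gene was called in opposite directions in 3xSR and MYC-OE. The 3 genes that share the symbol MRPS18 were each called in SRSF3-OE and in 1 other line. MRPS18A rose in SRSF3-OE (0.38) and SRSF7-OE (0.31), MRPS18B in MYC-OE (0.20) and SRSF3-OE (0.29), and MRPS18C in 3xSR (0.20) and SRSF3-OE (0.46).

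Lines were then compared with each other. MYC-OE against 3xSR called 24 MRP genes higher and 10 lower, beside 34.9% of all genes called, and the median difference was 0.08. MRPL23 was higher in MYC-OE by 0.71 (adjusted p = 0.00043, edgeR) and MRPL43 by 0.40. SRSF3-OE against SRSF2-OE called 13 higher and 7 lower (background 26.8%), with MRPL32 and MRPL30 higher by 0.44 each and MRPL53 lower, at -0.86 (adjusted p = 0.0026, edgeR). Upper quartile scaling gave 8 and 11 there, beside 9.70% of all genes called higher and 15.2% lower. SRSF7-OE against SRSF2-OE called 1 higher, MRPS16 at 0.30, and 6 lower (background 24.2%). Without replicate 3 of SRSF7-OE there were 1 and 3 (background 17.5%). SRSF7-OE against SRSF3-OE called 11 higher and 20 lower (background 35.2%), and 7 and 13 without replicate 3 of SRSF7-OE (background 27.7%). Scaling to total counts gave 16 and 11, beside 23.1% of all genes called higher and 12.6% lower (17.3% and 17.8% otherwise). The balance of directions there thus depends on the scaling, for the MRP genes and for all genes.

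The effect of 3xSR was set against that of each single factor by fitting both tables together, a test added after the data were seen. The 3xSR effect was lower than the SRSF2-OE effect for 25 MRP genes and higher for 2 (background 8.53% lower and 13.3% higher, median difference -0.22), lower than the SRSF3-OE effect for 30 and higher for 2 (background 7.02% and 10.8%, -0.26), and lower than the SRSF7-OE effect for 28 and higher for 5 (background 10.9% and 13.6%, -0.23). These 3 tests share the 3xSR, 3xCTL and 1xCtrl libraries. The 2 tables have different controls and 1xCtrl has the lowest share of MRP counts, so a difference between effects and a difference between controls cannot be told apart.

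The cytosolic ribosome, the other large family of ribosomal proteins, was compared in the same fits, in which 29.0% of all genes were called in either direction in 3xSR, 35.3% in MYC-OE, 23.5% in SRSF2-OE, 29.2% in the SRSF3-OE libraries and 17.3% in SRSF7-OE. Of 85 tested cytosolic ribosomal protein genes 8 rose and 6 fell in 3xSR (median 0.03), and 73 rose and 2 fell in MYC-OE (median 0.29). In SRSF2-OE 46 rose and 1 fell (0.28), in SRSF3-OE 48 rose and 2 fell (0.27), and in SRSF7-OE 64 rose and none fell (0.34). In SRSF7-OE DESeq2 gave 67 and 0, beside 19.9% of all genes called in either direction. At an unadjusted p under 0.05 in edgeR there were 74 and 0. The MRP medians of -0.02, 0.11, 0.24, 0.29 and 0.20 stood beside the cytosolic medians in the same order. Many cytosolic ribosomal protein genes have processed pseudogenes, so their counts are uncertain.

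**Figure D5:**
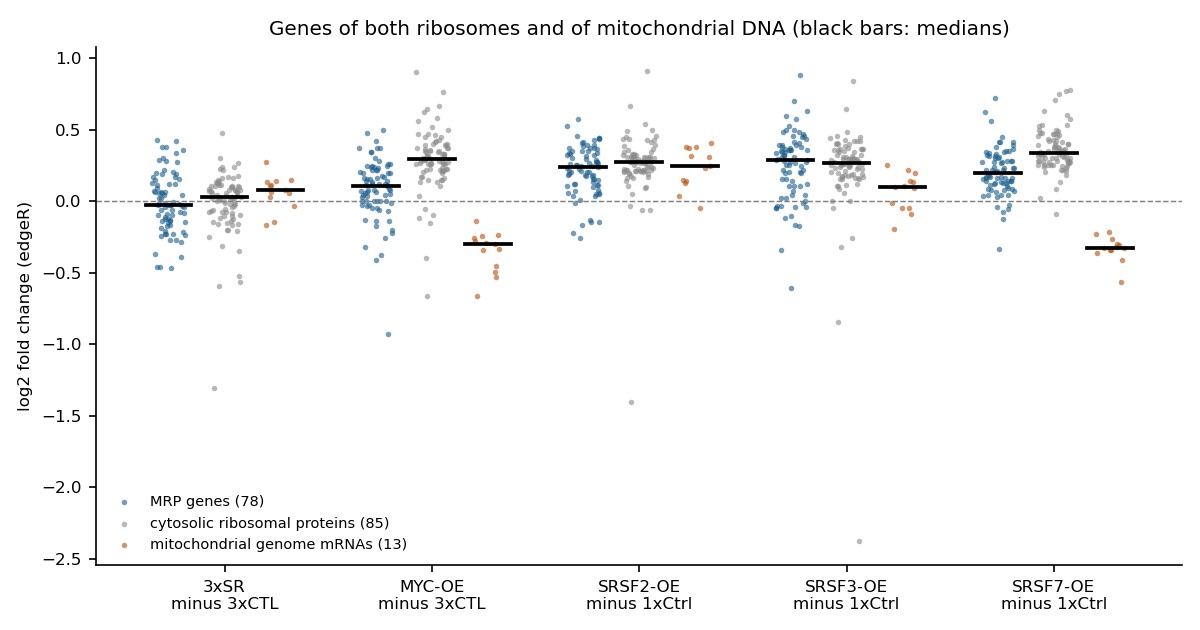
Log2 fold change against the control (y axis) of the 78 MRP genes, the 85 cytosolic ribosomal protein genes and the 13 mitochondrially encoded mRNAs (points) in each of the 5 lines (x axis), with medians as black bars. In MYC-OE the medians were 0.11, 0.29 and -0.30, and in SRSF7-OE 0.20, 0.34 and -0.32.

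Of the 13 mitochondrially encoded mRNAs, which mitochondrial ribosomes translate, 12 fell in MYC-OE (median -0.30) and 4 in SRSF7-OE (median -0.32), where DESeq2 called 10 lower. Of all genes 17.3% were called lower in MYC-OE and 8.26% in SRSF7-OE by edgeR, and 9.97% in SRSF7-OE by DESeq2. In SRSF2-OE 4 rose (0.25) and in 3xSR 1 rose (0.08), beside 11.6% and 15.3% of all genes called higher. None was called in SRSF3-OE (0.10) by edgeR or DESeq2, and 1 was higher at an unadjusted p under 0.05. MT-ND1, a subunit of respiratory complex I, gave -0.66 in MYC-OE, 0.40 in SRSF2-OE and -0.41 in SRSF7-OE. The 2 mitochondrial rRNAs were called in no line by edgeR; at an unadjusted p under 0.05 both were lower in SRSF7-OE and neither was called elsewhere, and DESeq2 called 1 lower in SRSF7-OE. Since the libraries were polyA-selected, their counts do not measure rRNA content.

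Genes that act with the mitochondrial ribosome were taken from lists written down for this purpose. Their counts stand beside the shares of all genes called in either direction, which for the 5 lines in the order above were 29.0%, 35.3%, 23.5%, 29.2% and 17.3%, and nothing is called particular to a list. By DESeq2 the shares were 32.5%, 37.5%, 25.4%, 30.8% and 19.9%. At an unadjusted p under 0.05 no share of all genes was taken. The 5 ribosome proteins without an MRP symbol gave 1 call in each line: AURKAIP1 at -0.38 in 3xSR, CHCHD1 at 0.21 in MYC-OE, 0.24 in SRSF2-OE and 0.22 in SRSF7-OE, and DAP3 at 0.18 in SRSF3-OE. Of the 26 assembly and rRNA modification genes 5 rose and 3 fell in 3xSR, 3 and 2 in MYC-OE, 7 and 1 in SRSF2-OE, 7 and 0 in SRSF3-OE (DESeq2 9 and 0, unadjusted 11 and 1), and 4 and 2 in SRSF7-OE. NGRN, which acts on the large ribosomal RNA, gave -0.48 in 3xSR and 0.37 and 0.38 in SRSF2-OE and SRSF7-OE. Of the 16 translation factors 7 rose and 1 fell in SRSF3-OE and 5 and 2 in MYC-OE, and MTFMT, which formylates the initiator tRNA, gave -0.93 in 3xSR, -0.66 in MYC-OE and -0.60 in SRSF3-OE. The remaining lines gave 2 and 1, 3 and 0, and 1 and 2 in 3xSR, SRSF2-OE and SRSF7-OE.

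The 20 aminoacyl-tRNA synthetases and amidotransferase genes gave 1 higher and 1 lower in 3xSR, 6 and 4 in MYC-OE, 2 and 1 in SRSF2-OE, 7 and 0 in SRSF3-OE (DESeq2 7 and 0, unadjusted 9 and 1), and 2 and 1 in SRSF7-OE. YARS2, the mitochondrial tyrosyl-tRNA synthetase, rose by 0.29 in 3xSR, 0.29 in MYC-OE, 0.38 in SRSF2-OE and 0.52 in SRSF3-OE. Of 16 genes that copy, transcribe or process mitochondrial DNA and RNA, 10 rose and 1 fell in SRSF3-OE, among them TWNK, the replicative helicase, at 0.59 and TRMT10C, a subunit of mitochondrial RNase P, at 0.66. In SRSF2-OE 5 rose and none fell by edgeR (DESeq2 5 and 1, unadjusted 8 and 1). The other lines gave 2 and 1 in 3xSR, 1 and 1 in MYC-OE, and 1 and 0 in SRSF7-OE. Of the 27 import and folding genes 16 rose and none fell in SRSF3-OE (DESeq2 17 and 0, unadjusted 19 and 0), 11 and 2 in SRSF2-OE, 9 and 3 in MYC-OE, 8 and 1 in SRSF7-OE, and 4 and 5 in 3xSR. Of 8 regulators of mitochondrial biogenesis 3 fell and none rose in MYC-OE (by edgeR, by DESeq2 and at an unadjusted p under 0.05), where the coactivator PPARGC1B gave -0.48 (-0.69 in SRSF2-OE), and SRSF3-OE gave 3 higher and 1 lower. The same list gave 1 and 0 in 3xSR, 0 and 1 in SRSF2-OE and 0 and 2 in SRSF7-OE.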

How the data were processed

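RNA was measured by RNA-seq in 21 libraries, 3 in each of 7 groups taken from the sample labels. The authors deposited 2 tables of whole-number counts per gene. The reads were handled with Trimmomatic 0.39, STAR and StringTie 2.1.3b on GRCh38.p13, per the submitters' processing notes; as StringTie is named, the deposited counts may be estimated from coverage. The annotation release, strand setting and counting of pairs are not given in the sources used here.

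Each table was tested in R 4.3.3 with edgeR 4.0.16 (filterByExpr with a minimum count of 10, TMM, quasi-likelihood test, Benjamini-Hochberg adjustment over all genes tested, threshold 0.05), with all groups of the table in 1 fit. Alternatives used limma 3.58.1 and DESeq2 1.42.0, other scalings, filters and sample sets, removal of a GC trend and leaving out each library. Lengths, GC content and overlaps came from GENCODE 29 by gene identifier. Counts of 143269192 to 303323552 per library put the limit that 3 counts allow at 0.00947 to 0.0210 CPM.

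Replicate numbers did not pair the libraries: no pair's correlation of deviations exceeded 0.1, and the means lay between -0.107 and 0.0118. On simulated counts for 3xSR against 3xCTL (23160 genes, 200 changed), 78.6% of genes with at least 5 CPM changed 1.5-fold were recovered and 4.81% of those changed 1.25-fold. For SRSF2-OE against 1xCtrl (24362 genes, 200 changed) the shares were 65.2% and 0%. In the data 29.0% and 23.5% of all genes were called in these comparisons. With so few genes changed, the adjustment was stricter in the simulation, so its shares do not give the recovery in the data. Differences between replicate libraries exceeded counting noise, so none was merged.

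The members and all gene lists were chosen with earlier results of these data known. Named genes were drawn from MRPS18A, MRPS18B, MRPS18C, MRPL12, MRPL58 and MRPS30, the 5 highest and 5 lowest called genes without overlap per line, the 2 highest and 2 lowest per direct comparison, those called alike in 4 or 5 lines, those sharing exon bases, and up to 2 called genes per list and line. Not every gene so picked is given with a value, and MRPL18, MRPL20, MRPL27, MRPL48 and MRPS24 are among those without one. The comparisons with neighbouring genes, the overlap partners, the promoter stretches shown and the fit of both tables together were chosen after the data were seen. Promoters of 9 members had no entry in the table and were not used here, and 1 marker gene is not reported here.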

Additional observations from a re-analysis of the deposited data

Results flagged for a closer look

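The comparisons of lines with each other gave MRP genes whose effects differed by edgeR's quasi-likelihood test of the difference itself (adjusted p under 0.05). Between MYC-OE and 3xSR 34 of the 78 genes differed (34.9% of all genes), between SRSF3-OE and SRSF2-OE 20 (26.8%), between SRSF7-OE and SRSF2-OE 7 (24.2%), and between SRSF7-OE and SRSF3-OE 31 (35.2%). As shares of the 78, the 20 lay near the share of all genes and the 7 well below it. The 34 and the 31 lay somewhat above it. With both tables fitted together, the effect of 3xSR differed from that of SRSF2-OE for 27 genes (21.9% of all genes), from that of SRSF3-OE for 32 (17.8%) and from that of SRSF7-OE for 33 (24.6%). In the last 3 comparisons the lines have different controls, and a difference between the controls cannot be told apart from one between the lines.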

How the results depend on the processing

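Several counts of called MRP genes changed with the samples fitted. Fitting only the groups compared, in place of all groups of a table, gave 22 calls in SRSF2-OE (35 in all groups), 27 in SRSF3-OE (46), 13 in SRSF7-OE (26), 34 for SRSF3-OE against SRSF2-OE (20), 16 for SRSF7-OE against SRSF2-OE (7) and 21 for the 3xSR effect minus the SRSF3-OE effect (32). The share of all genes called moved as well, to 18.9% (23.5% in all groups), 21.5% (29.2%), 9.76% (17.3%), 37.8% (26.8%), 34.3% (24.2%) and 12.5% (17.8%) in that order. Removing the GC trend gave 41 calls in SRSF7-OE, 33 for SRSF3-OE against SRSF2-OE, 16 for SRSF7-OE against SRSF2-OE and 42 for the 3xSR effect minus the SRSF2-OE effect (27). Of all genes 28.8%, 34.6%, 34.3% and 28.3% were called with the trend removed, in that order. Scaling to total counts moved the MRP median log2 fold change to 0.18 in SRSF2-OE, 0.18 in SRSF3-OE and -0.19 for the 3xSR effect minus the SRSF3-OE effect. Upper quartile scaling gave 0.22 and -0.21 for the last 2, and no filter 0.24 in SRSF3-OE. The median over all genes moved as well. With total counts it was -0.07 in SRSF2-OE and -0.14 in SRSF3-OE (-0.01 and -0.03 with TMM). In SRSF3-OE it was -0.09 with upper quartile scaling and -0.04 with no filter. The split of calls in SRSF3-OE was 32 higher and 5 lower with total counts, and for SRSF3-OE against SRSF2-OE 8 higher and 11 lower with upper quartile scaling. Of all genes 9.42% were called higher and 20.0% lower in the first fit, and 9.70% and 15.2% in the second.

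With the replicate number as a block, SRSF7-OE gave 17 calls, and the block changed no other count of MRP genes by over 1.5 times: 3xSR gave 10 higher and 8 lower, MYC-OE 20 and 6, SRSF2-OE 30 and 0, and SRSF3-OE 43 and 1. With the block 13.8% of all genes were called in SRSF7-OE, 26.5% in 3xSR, 33.5% in MYC-OE, 20.3% in SRSF2-OE and 26.0% in SRSF3-OE. The replicate numbers do not pair the libraries.

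Leaving out 1 library at a time, the calls ranged from 16 to 42 in 3xSR, 21 to 38 in MYC-OE, 20 to 42 in SRSF2-OE, 30 to 54 in SRSF3-OE, 11 to 41 in SRSF7-OE, 4 to 8 for SRSF7-OE against SRSF2-OE and 20 to 26 for SRSF7-OE against SRSF3-OE. The share of all genes called ranged from 20.5% to 38.5% in 3xSR and 27.6% to 37.7% in MYC-OE. It was 18.9% to 30.0% in SRSF2-OE, 22.0% to 32.1% in SRSF3-OE and 10.7% to 29.2% in SRSF7-OE. In the last 2 comparisons it was 17.5% to 21.3% and 27.7% to 30.8%. The medians ranged from 0.15 to 0.24 in SRSF2-OE, 0.19 to 0.29 in SRSF3-OE, 0.15 to 0.21 in SRSF7-OE, -0.31 to -0.23 for the 3xSR effect minus the SRSF3-OE effect and -0.28 to -0.19 minus the SRSF7-OE effect.

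Summed over the 5 lines, fitting only the groups compared gave 162 calls of cytosolic ribosomal proteins (250 otherwise), 1 of the ribosome proteins without an MRP symbol (5), 19 of assembly genes (34), 15 of translation factors (24), 15 of synthetases (25), 14 of mitochondrial DNA expression (22), 7 of regulators (11) and 1 of rRNAs (0). In those fits the share of all genes called ran from 9.76% in SRSF7-OE to 33.5% in MYC-OE (17.3% and 35.3% otherwise). GC removal gave 11, 54, 40, 35 and 1 for the proteins without an MRP symbol, assembly, synthetases, DNA expression and rRNAs. With it the share of all genes called ran from 28.8% in SRSF7-OE to 43.3% in MYC-OE. The proteins without an MRP symbol gave 3 with upper quartile scaling, 1 with no filter, 3 with the replicate block and 2 to 11 leaving out 1 library. The rRNAs gave 1 with DESeq2 and 0 to 2 leaving out 1 library. Of all genes 28.9% in 3xSR and 16.4% in SRSF7-OE were called with upper quartile scaling (29.0% and 17.3% otherwise). In these 2 lines the shares were 16.3% and 10.5% with no filter, and 26.5% and 13.8% with the replicate block. With DESeq2 they were 32.5% and 19.9%. Leaving out 1 library, the share ran from 10.7% in SRSF7-OE to 38.5% in 3xSR. With all exon bases as length the median level was 14.3 CPM per kb in 3xCTL and 13.3 in 1xCtrl. With transcript length, the median in 1xCtrl was 28.3 from the means of 3 libraries and, leaving out 1 library, ranged from 25.9 to 27.5 from the means of 2.

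For 125 pairs of a named MRP gene and a comparison, 2000 alternatives gave 1796 values with the same direction and call, 180 no longer called, 24 newly called and 0 reversed. The causes were not tested.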
